A study of Rattus norvegicus with 32 samples.

Results

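Glutathione transferases and UDP-glucuronosyltransferases were followed through the livers of rats with and without corticosteroid-binding globulin (CBG), the plasma carrier of glucocorticoids. The members were the genes of the deposited count table whose symbol began with Gsta, Gstk, Gstm, Gsto, Gstp, Gstt or Gstz and a digit, with Mgst and a digit, or with Ugt1, Ugt2, Ugt3 or Ugt8. The rule found 43 of the 17327 genes in the table, 25 of them transferases (22 Gst and 3 Mgst) and 18 of them Ugt. Livers came from Charles River Sprague Dawley rats of both sexes, either WT or CBG knockout (KO) by CRISPR/Cas9 disruption of Serpina6, the gene of CBG, at 30 or 60 days of age under basal conditions. The 8 groups by sex, genotype and age held 4 livers each, which gave 32 libraries of polyadenylated RNA. WT rats were Cbg+/+ and KO rats Cbg-/-. The labels name no founder line, litter or pooling of animals, so p-values measure the spread between these livers.

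Both families carry out the conjugation step of detoxification, in which a foreign or endogenous compound is joined to a water-soluble group and can then leave the liver cell in bile or blood. Glutathione transferases join the tripeptide glutathione to electrophiles, and several also reduce lipid peroxides. Cytosolic forms fall into alpha, mu, pi, theta, omega and zeta classes. The kappa form belongs to mitochondria and peroxisomes, and microsomal forms sit in membranes. Glucuronosyltransferases of the endoplasmic reticulum transfer glucuronic acid from UDP-glucuronate to bilirubin, phenols, steroids and drugs. Liver expresses both families in quantity, and in rodents many members differ between the sexes after puberty and respond to inducers.

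Serpina6 checked the genotype labels: it was lower in KO in all 4 sex and age groups, by 7.75-fold to 16.0-fold, without overlap. Libraries held 12951969 to 21954929 gene reads, 16806943 or more at 30 days and 17133332 or fewer at 60 days. Hepatocyte markers were present in every library, and their summed level ran from 152129 to 229935 CPM, a read count relative to the size of its library. In replicate 1 of the 60-day KO females the 13 photoreceptor markers of the table gave a sum of 2065 CPM, where the other 31 libraries gave 3.09 to 11.2 CPM. Pancreatic markers summed to 35.1 to 220 CPM in 60-day WT females, 6.21 to 48.5 CPM in 60-day KO females and at most 16.9 CPM elsewhere. Reads deposited as ambiguous came to 0.554% to 0.648% in adult males and to 0.466% or less in the other libraries. No source used here defines them, so their share does not measure the reads shared within these families. Levels below are CPM after scaling by trimmed means of M-values (TMM), and fold changes are edgeR log2 fold changes with their standard error (SE). A gene was called where its edgeR p-value, adjusted by Benjamini and Hochberg over 11002 genes, was below 0.05. Replicate numbers follow the order of the series and link no animals across groups.

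Of the 43 members, 36 had 10 or more reads in at least 4 libraries, and the same number passed the expression filter and was tested: 18 of 22 Gst, 3 of 3 Mgst and 15 of 18 Ugt. Gstm5 and Gstt4 had no read in any library. Gsta5, Gstm6l, Ugt1a8 and Ugt8 had 4 reads or fewer over all libraries together, and Ugt1a9 had 19. Ugt2b34 is no row of the count table under that name, and no Ugt3 symbol was found. Several tested members were also near the limit of detection, among them Gstm3, Gstm6, Gsto2, Ugt1a2, Ugt1a3, Ugt1a7c, Ugt2a1 and Ugt2b7, so their fold changes carry wide errors.

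Reads can be shared within these families, and no source used here says how the authors treated such reads. In RefSeq (GRCr8) the members lie in clusters: 8 Gstm genes within a run of 9 protein-coding genes, 8 Ugt2 genes within 13, 4 Gstt genes within 5, and Gsta3 next to Gsta1. All 8 Ugt1a members end at the same position there, because they pair their own first exons with shared later ones. The table's symbols also come from an older naming: 42 members matched a RefSeq symbol, 10 of these symbols are also older names of another gene, and the remaining member, Ugt2b17, is now a synonym of 2 genes, Ugt2b15 and Ugt2b1. Symbols below are those of the count table.

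Loss of CBG left these families with few differences that passed the test. In 30-day females 0 of 36 members were called by edgeR, where 0.300% of all genes were; 4 members had an unadjusted p below 0.05, and DESeq2 and limma-voom called 0. In 30-day males 0 were called, beside 0.0545% of all genes, with 2 at an unadjusted p below 0.05 and 0 by both other tools. In 60-day males 0 were called, beside 0.209% of all genes, again with 2 at an unadjusted p below 0.05 and 0 by both other tools. In 60-day females 2 members were called, Gsta2 higher and Ugt2b lower in KO, which is 5.56% of the members beside 6.77% of all genes (3.48% higher and 3.29% lower). The median log2 fold change of the members there was 0.15, beside 0.01 over all genes, and 27 of 36 members were above 0. Among members that missed the test were Gstt1 at 0.45 ± 0.17 (SE; adjusted p = 0.288) in 30-day females and Gstk1 at 0.30 ± 0.13 (adjusted p = 0.758) in 30-day males.

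Most calls were between the sexes or the ages. In 30-day WT rats 2 of 36 members differed between the sexes, Gstm3 and Ugt2b37, both higher in males, beside 2.07% of all genes, with 1.08% higher in males. In 30-day KO rats 1 member differed, Gsta1, lower in males, beside 2.24% of all genes, with 1.38% lower in males. In 60-day WT rats 21 of 36 members differed, 10 higher and 11 lower in males, or 58.3% of the members beside 26.4% of all genes (13.7% higher and 12.7% lower). In 60-day KO rats 15 differed, 8 higher and 7 lower in males, or 41.7% beside 18.5% of all genes (9.63% higher and 8.89% lower). No member passed the test of sex by genotype at 30 days (0 of 36 by edgeR, beside 0% of all genes, with 0 at an unadjusted p below 0.05 and 0 by DESeq2 and limma-voom) or at 60 days (0 of 36 by edgeR, beside 0.136%, with 4 at an unadjusted p below 0.05, 1 called by DESeq2 and 0 by limma-voom). The sex differences of the 2 genotypes were thus not shown to differ. A test of whether the sex difference changed with age called 8 members in WT, 4 in each direction, beside 9.00% of all genes (4.62% upward and 4.38% downward), and 6 in KO, 3 in each direction, beside 4.69% (2.79% and 1.90%).

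**Figure D1:**
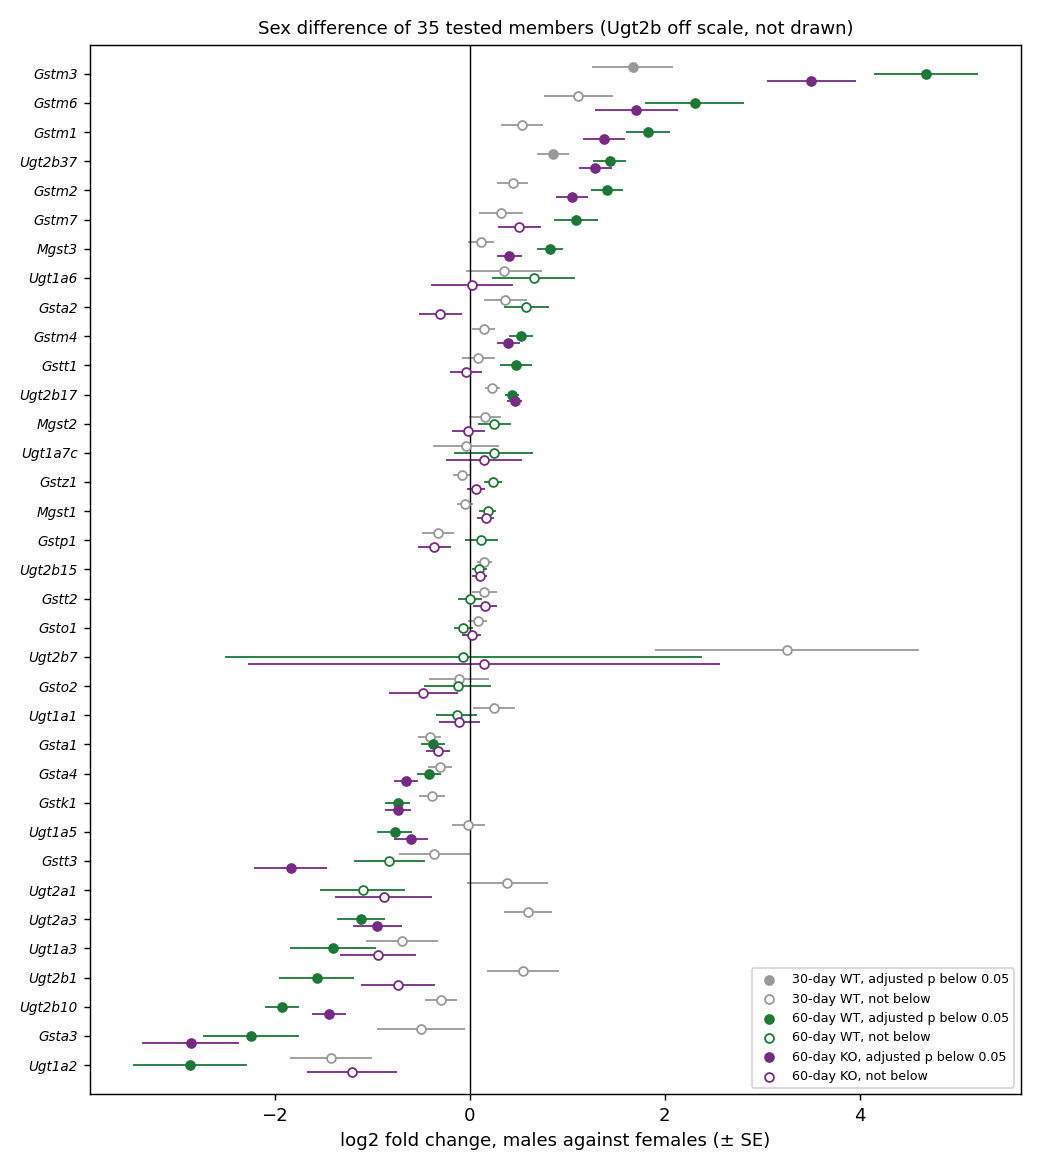
Log2 fold change of males against females with its SE for 35 tested members (Ugt2b, at -10.86 in 60-day WT, is off the scale and not drawn), for 30-day WT, 60-day WT and 60-day KO livers. Filled points passed an adjusted p of 0.05. The 6 Gstm members lie to the right of 0 at 60 days, and Ugt1a2, Gsta3, Ugt2b10 and Ugt2b1 are the members farthest to the left in 60-day WT.

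Between 30 and 60 days, 14 members were called in WT females (7 higher and 7 lower at 60 days, 38.9% beside 33.1% of all genes, 16.0% higher and 17.1% lower). In KO females 9 were called (4 higher and 5 lower, 25.0% beside 22.7%, 10.6% higher and 12.1% lower). In WT males 16 were called (8 and 8, 44.4% beside 31.5%, 15.7% higher and 15.8% lower), and in KO males 17 (7 higher and 10 lower, 47.2% beside 28.4%, 14.0% higher and 14.5% lower). The split of these calls moved with the scaling: without scaling between libraries the calls were 5 higher and 9 lower in WT females, 0 and 8 in KO females, 7 and 11 in WT males and 5 and 10 in KO males, while the median of all genes shifted to between -0.11 and -0.21. Under the same setting the share of all called genes that were higher at 60 days fell from between 46.9% and 49.8% to between 15.7% and 27.5%. Depth differed between the ages as given above, and 7 stellate cell markers summed to 824 to 1408 CPM at 30 days and 266 to 588 CPM at 60 days. Their part in the age differences was not tested. In bulk tissue fewer cells of a type and less RNA per cell cannot be told apart.

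**Figure D2:**
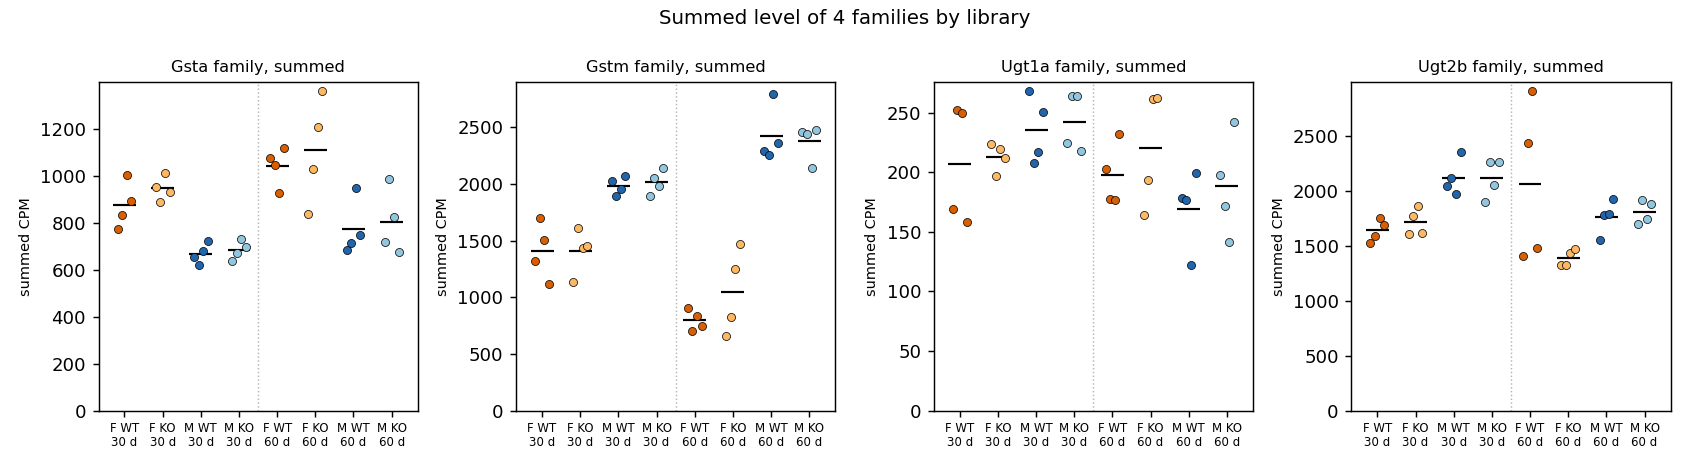
Summed CPM of the Gsta, Gstm, Ugt1a and Ugt2b members in each of the 32 livers (points) with group means (bars); the axes start at 0. The summed Gstm level ran from 2139 to 2788 CPM in 60-day males and from 655 to 1466 CPM in 60-day females.

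The alpha class reduces lipid peroxides and conjugates their breakdown products, and its members took opposite courses. Gsta3 fell in males between the ages. It stood at 93.7, 78.0, 129 and 104 CPM in replicates 1 to 4 of the 30-day WT males and at 5.37, 7.78, 18.8 and 31.1 CPM at 60 days. In KO males it stood at 97.4, 100, 131 and 98.0 CPM and then at 6.47, 29.2, 9.58 and 8.43 CPM. Every 60-day male was below every 30-day male in both genotypes. The log2 fold changes were -2.70 ± 0.49 (adjusted p = 0.000153) in WT and -2.98 ± 0.50 (adjusted p = 6.44e-05) in KO. In WT females the 60-day livers also lay below the 30-day livers, 63.1 to 85.2 against 87.0 to 177 CPM, but the change of -0.96 ± 0.45 was not called (adjusted p = 0.109). At 60 days Gsta3 was 4.73-fold lower in WT males than in WT females (log2 -2.24 ± 0.49, adjusted p = 0.0011) and 7.27-fold lower in KO males than in KO females (-2.86 ± 0.50, adjusted p = 0.000139). The sex difference of Gsta3 changed with age in KO by -2.70 ± 0.66 (adjusted p = 0.016), and the WT estimate of -1.74 was not called.

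Gsta1, whose RefSeq neighbour is Gsta3, rose over the same interval in males. It stood at 462, 454, 459 and 530 CPM in the 30-day WT males and at 590, 625, 822 and 606 CPM in the 60-day WT males, with no overlap. The change was 0.47 ± 0.12 in WT males (adjusted p = 0.00328), 0.53 ± 0.12 in KO males (adjusted p = 0.00116) and 0.44 ± 0.12 in WT females (adjusted p = 0.00571). In KO females the change of 0.27 ± 0.12 was not called (adjusted p = 0.105). Males were lower than females in 30-day KO (-0.59 ± 0.12, adjusted p = 0.00598) and in 60-day WT (-0.37 ± 0.12, adjusted p = 0.0205). The second of these calls was lost without 60-day WT female replicate 4 or without WT male replicate 1, 2 or 4, where adjusted p reached 0.0727, and in a fit of the 60-day libraries alone. Gsta4, the form that conjugates hydroxynonenal from lipid peroxidation, was lower in 60-day males of both genotypes, by 0.42 ± 0.12 in WT, a call lost without WT male replicate 2 (adjusted p = 0.0524), and by 0.65 ± 0.12 in KO (log2 -0.42 and -0.65). It rose with age in KO females by 0.43 ± 0.12 (adjusted p = 0.0109), a call lost without 60-day KO female replicate 4 (adjusted p = 0.0893) and without scaling between libraries.

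Windows of 250 bases before the RefSeq start sites of 4 members are shown because these genes carry the results on either side: the neighbours Gsta3 and Gsta1 moved in opposite directions with age in males, and Gsta2 and Ugt1a6 varied between the 60-day KO females described further on. Sequences are from RefSeq (GRCr8), matched by symbol, on the strand of the gene, and for Gsta3, which has 2 windows in the table, the one at the lower coordinate is shown. The symbols Gsta1, Gsta2 and Gsta3 are also older names of other alpha genes, so a window may belong to a neighbour of the gene counted. Capitals mark matches on either strand to TGACNNNGC (the core of the antioxidant response element), GCGTG (the core of the xenobiotic response element) or TTCNNNGAA (the STAT5 consensus).
Gsta3 (chr9:31154739-31154988, plus strand): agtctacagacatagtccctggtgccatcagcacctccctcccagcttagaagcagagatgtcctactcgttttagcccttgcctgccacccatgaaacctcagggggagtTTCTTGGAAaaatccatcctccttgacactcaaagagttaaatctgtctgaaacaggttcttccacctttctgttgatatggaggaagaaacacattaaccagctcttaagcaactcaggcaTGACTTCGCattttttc
Gsta1 (chr9:31216533-31216782, minus strand): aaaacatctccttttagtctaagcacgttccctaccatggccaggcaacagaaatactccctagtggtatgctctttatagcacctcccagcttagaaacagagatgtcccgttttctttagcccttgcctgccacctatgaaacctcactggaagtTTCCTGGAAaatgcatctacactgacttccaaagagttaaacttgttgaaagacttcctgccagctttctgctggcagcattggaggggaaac
Gsta2 (chr8:88077093-88077342, minus strand): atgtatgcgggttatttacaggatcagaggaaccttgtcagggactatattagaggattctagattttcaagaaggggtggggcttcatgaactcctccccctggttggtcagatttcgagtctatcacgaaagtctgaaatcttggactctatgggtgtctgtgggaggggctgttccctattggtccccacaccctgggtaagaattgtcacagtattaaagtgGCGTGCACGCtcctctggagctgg
Ugt1a6 (chr9:96194768-96195017, plus strand): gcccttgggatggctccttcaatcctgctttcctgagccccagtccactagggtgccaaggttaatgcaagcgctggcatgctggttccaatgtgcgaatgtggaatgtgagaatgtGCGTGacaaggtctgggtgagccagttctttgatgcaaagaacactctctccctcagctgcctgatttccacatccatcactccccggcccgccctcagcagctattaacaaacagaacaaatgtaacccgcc
Counted from the start site, the Gsta3 window held TTCTTGGAA from position -139 and TGACTTCGC from -17, and the Gsta1 window held TTCCTGGAA from -93. In Gsta2 a GCGTG at -24 was followed by its reverse complement CACGC at -19, and in Ugt1a6 a GCGTG began at -133. Of all 33469 windows of that length, 10.1% held TGACNNNGC, 25.9% GCGTG and 7.67% TTCNNNGAA, and of the 36 members with a window 5, 12 and 5 did. These 36 are not the 36 tested members. Untested members such as Gstm5 and Ugt8 have a window and hold a match, and tested ones such as Gstt1 and Ugt2b17 have none. Members were counted once even with 2 windows, whereas the percentages are per window. The matches describe letters only and name no bound factor.

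The mu class, which conjugates epoxides and other electrophiles, was the most uniform by sex. All 6 tested Gstm members were higher in 60-day WT males than in WT females, and 5 of 6 in KO. The median log2 fold change over these members was 1.62 in WT and 1.21 in KO, beside 0.00 and -0.02 over all genes. Gstm6, counted here, passed the expression filter mainly through males, as given below. In 60-day WT the summed level of the 8 Gstm genes was 796 ± 92.5 CPM (SD, n = 4) in females and 2424 ± 247 CPM in males. In KO it was 1047 ± 373 CPM in females and 2378 ± 161 CPM in males. At 30 days it was already 1409 ± 247 CPM in WT females and 1985 ± 74.5 CPM in WT males.

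Gstm1 gave most of that sum. It stood at 463, 379, 461 and 421 CPM in the 60-day WT females and at 1427, 1406, 1669 and 1611 CPM in the 60-day WT males, so that the lowest male was above the highest female. The difference was 3.55-fold in WT (log2 1.83 ± 0.22, adjusted p = 3.49e-07) and 2.60-fold in KO (1.38 ± 0.22, adjusted p = 3.13e-05). In the 30-day WT females Gstm1 had stood at 922, 1258, 1010 and 750 CPM. It fell in females between the ages, by 1.19 ± 0.22 in WT (adjusted p = 0.000108) and by 0.80 ± 0.22 in KO (adjusted p = 0.00756). In males its change was not called. The difference between the sexes grew with age in WT by 1.29 ± 0.31 on the log2 scale (adjusted p = 0.00705), and in KO the estimate was 0.74 ± 0.31 (adjusted p = 0.189).

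Gstm2 followed the other course to a like sex difference: it rose in males. The 60-day WT males stood at 698, 687, 919 and 542 CPM, the 30-day WT males at 445, 471, 427 and 287 CPM and the 60-day WT females at 327, 230, 277 and 238 CPM. The 60-day WT males were above both other groups without overlap. The rise in males was 0.80 ± 0.16 in WT (adjusted p = 0.000286) and 1.02 ± 0.16 in KO (adjusted p = 1.55e-05). At 60 days the male level was 2.66-fold that of females in WT (1.41 ± 0.16, adjusted p = 1.09e-07) and 2.07-fold in KO (1.05 ± 0.16, adjusted p = 1.58e-05). The sex difference grew with age by 0.97 ± 0.23 in WT (adjusted p = 0.00561) and by 0.76 ± 0.23 in KO (adjusted p = 0.0465), the second lost in 11 of 16 fits that each left out a library.

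The other mu members were lower in level or in size of difference. Gstm3, with 0 to 4 reads in each 60-day WT female and 38 to 87 in each 60-day WT male, was 25.6-fold higher in males (log2 4.68 ± 0.53, adjusted p = 7.8e-08). It was also higher in 30-day WT males (1.67 ± 0.41, adjusted p = 0.0258), a call lost without WT female replicate 3 or 4 or WT male replicate 1 or 2, with adjusted p up to 0.118, and with limma-voom. Gstm6, at 1 or 2 reads in each 60-day WT female, was higher in males by 2.31 ± 0.51 on the log2 scale (adjusted p = 0.000853). Of the 12 libraries with 10 or more reads of Gstm6, most were from males. It thus entered the test mainly through the sex in which it was higher, and its call is no independent support for a sex difference. Gstm3 and Gstm6 fell with age in WT females, by 1.93 ± 0.65 and 1.71 ± 0.52 (adjusted p = 0.022 and 0.0116). The Gstm3 call was lost without 30-day replicate 1 or 2 or 60-day replicate 3. Gstm7 was higher in 60-day WT males by 1.09 ± 0.23 (adjusted p = 0.000548) and Gstm4 by 0.53 ± 0.12 (adjusted p = 0.00148). In KO Gstm7 showed 0.51 ± 0.22 and missed the test (adjusted p = 0.12), although its groups did not overlap. Gstm4 differed in KO by 0.40 ± 0.12 (adjusted p = 0.0199), a call lost without KO female replicate 1 or 2, with adjusted p up to 0.0946.

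**Figure D3:**
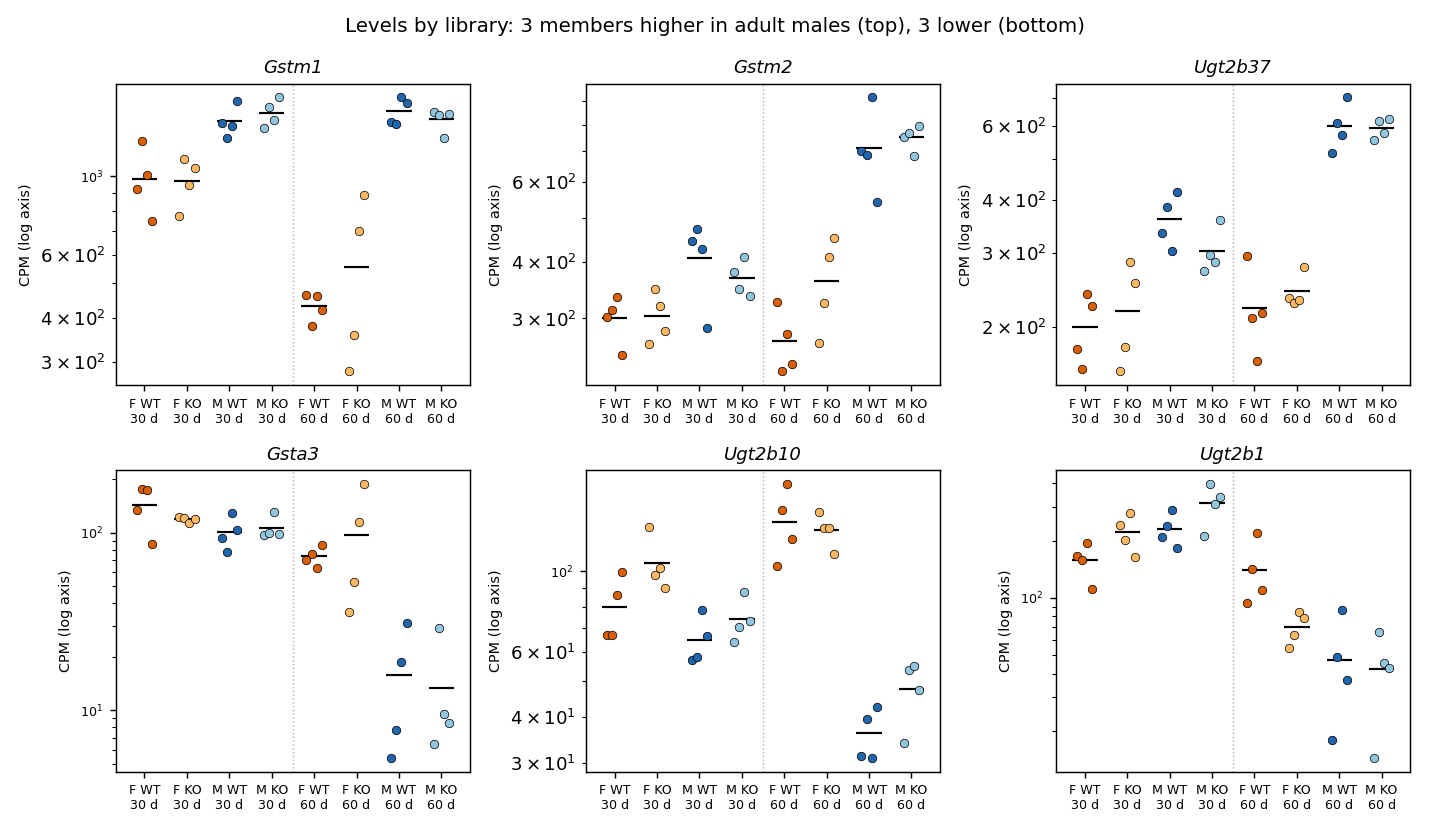
CPM of 6 members in each of the 32 livers on log axes, with group means as bars; F and M are females and males, WT and KO the genotypes, and the dotted line parts 30 from 60 days. Gstm1, Gstm2 and Ugt2b37 (top) were higher in 60-day males, and Gsta3, Ugt2b10 and Ugt2b1 (bottom) were higher in 60-day WT females than in WT males.

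Among the theta forms, which act on small halogenated compounds, Gstt3 was the most variable. In the 60-day KO females it stood at 177, 360, 408 and 612 CPM and in the KO males at 89.2, 134, 110 and 102 CPM, without overlap. Males were 3.57-fold lower (log2 -1.84 ± 0.37, adjusted p = 0.000702). In 60-day WT the estimate was -0.82 ± 0.36 and was not called (adjusted p = 0.0987), and the difference between the genotypes did not pass the interaction test. Gstt3 also rose with age in KO females (1.01 ± 0.36, adjusted p = 0.0467), a call lost without 30-day replicate 1, 3 or 4 or 60-day replicate 2, 3 or 4, with adjusted p up to 0.193. Gstt1 was higher in 60-day WT males, 51.2 to 71.8 against 40.3 to 53.3 CPM, by 0.47 ± 0.17 (adjusted p = 0.0341). That call was lost without WT female replicate 1, 2 or 4 or WT male replicate 3 or 4, with adjusted p up to 0.103, and without scaling between libraries. Gstt1 rose with age in WT males by 0.58 ± 0.17 (adjusted p = 0.00792). Gstt2 was called in no comparison.

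Of the remaining soluble forms, Gstk1, a transferase of mitochondria and peroxisomes, was lower in 60-day males of both genotypes. It stood at 163, 173, 158 and 147 CPM in the WT females and at 88.1, 92.2, 115 and 88.4 CPM in the WT males. The groups did not overlap, and the difference was -0.74 ± 0.13 in WT (adjusted p = 7.05e-05) and -0.73 ± 0.13 in KO (adjusted p = 0.000109). Gstz1, the maleylacetoacetate isomerase of tyrosine breakdown, rose with age in males of both genotypes, by 0.41 ± 0.09 in WT and by 0.53 ± 0.09 in KO (adjusted p = 0.00127 and 7.37e-05). Gstp1, the pi form known as a marker of preneoplastic foci in rat liver, was low in all groups, at 8.76 to 22.3 CPM. It rose with age in KO females (0.47 ± 0.17, adjusted p = 0.0407), a call lost without 30-day replicate 1 or 4 or 60-day replicate 3 or 4, with adjusted p up to 0.257, and under other scaling or limma-voom. The omega forms Gsto1 and Gsto2 gave a single call, Gsto1 higher in 60-day than in 30-day WT females by 0.26 ± 0.10 (adjusted p = 0.0354). Leaving out any of 5 libraries (30-day replicate 1 or 4, or 60-day replicate 2, 3 or 4) or changing the scaling ended it.

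Mgst1, the membrane-bound form that guards against lipid peroxides, was called in no KO or sex comparison and stayed between 1651 and 2417 CPM in all 32 livers. It was higher at 60 than at 30 days in males, by 0.24 ± 0.09 in WT (adjusted p = 0.0333) and by 0.34 ± 0.09 in KO (adjusted p = 0.00331), and without scaling between libraries neither call held. The WT call was also lost without 30-day replicate 1 or 2 or 60-day replicate 3 or 4, with adjusted p up to 0.12. Mgst3 was the microsomal form with a sex difference. It stood at 43.1, 34.3, 35.7 and 31.1 CPM in the 60-day WT females and at 64.0, 58.5, 71.9 and 60.7 CPM in the WT males, a gap without overlap of 0.82 ± 0.13 (adjusted p = 1.85e-05). In KO it was 0.41 ± 0.13 (adjusted p = 0.0275), lost without KO female replicate 1 or 3 or KO male replicate 1, 2 or 4, with adjusted p up to 0.1. In WT the sex difference of Mgst3 grew with age by 0.71 ± 0.19 (adjusted p = 0.013).

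Ugt1a1, which conjugates bilirubin, was called in no comparison and ranged from 70.8 to 173 CPM over the 32 livers. Ugt1a6, the form for planar phenols, changed with age. It stood at 40.6, 52.6, 42.8 and 23.9 CPM in 30-day WT females and at 14.6, 11.4, 13.0 and 11.9 CPM in 60-day WT females. In WT males it stood at 46.3, 48.7, 55.0 and 53.7 CPM and then at 17.8, 18.7, 12.1 and 31.9 CPM. No 60-day WT liver reached the 30-day range of its sex. The fall was 1.65 ± 0.42 in WT females (adjusted p = 0.00344), 1.35 ± 0.41 in WT males (adjusted p = 0.0127) and 1.70 ± 0.41 in KO males (adjusted p = 0.00257), all on the log2 scale. In KO females the estimate of -0.61 ± 0.41 was not called (adjusted p = 0.316).

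Ugt1a5 was lower in 60-day males, at 35, 40.7, 19.4 and 34.9 CPM in WT against 57.2, 51.0, 52.3 and 61.1 CPM in WT females. The groups did not overlap (-0.77 ± 0.18, adjusted p = 0.00154). In KO the difference was -0.60 ± 0.18 (adjusted p = 0.0143), lost without KO female replicate 3 or 4 or KO male replicate 3, with adjusted p up to 0.0829, and in a fit of the 60-day libraries alone. Ugt1a5 fell with age in males, by 0.88 ± 0.18 in WT and 0.70 ± 0.18 in KO (adjusted p = 0.000344 and 0.00314). Ugt1a2 and Ugt1a3 were also lower in 60-day WT males, at 1 or 2 reads per male library for Ugt1a2, by 2.87 ± 0.59 and 1.40 ± 0.44 on the log2 scale (log2 fold changes -2.87 and -1.40). The Ugt1a3 call was lost without WT male replicate 2 (adjusted p = 0.0601). Of the 13 libraries with 10 or more reads of Ugt1a2, most were from females. Ugt1a2 thus entered the test mainly through the sex in which it was higher, and its call is no independent support for a sex difference.

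The Ugt2 members included some that were higher and some that were lower in adult males. Ugt2b37 stood at 517, 610, 572 and 702 CPM in 60-day WT males against 294, 210, 166 and 216 CPM in WT females, without overlap. The difference was 2.71-fold in WT (log2 1.44 ± 0.17, adjusted p = 1.46e-07), 2.44-fold in KO (1.29 ± 0.17, adjusted p = 1.38e-06) and 1.80-fold already in 30-day WT (0.85 ± 0.17, adjusted p = 0.00342). It rose with age in males, by 0.73 ± 0.17 in WT and 0.97 ± 0.17 in KO (adjusted p = 0.00108 and 5.54e-05). Ugt2b17 was higher in 60-day males by 0.44 ± 0.08 in WT and 0.46 ± 0.08 in KO (adjusted p = 5.15e-05 and 3.24e-05). Ugt2b15 did not differ between the sexes by the test at either age in either genotype. It fell with age in all 4 groups, by 0.35 ± 0.07 and 0.31 ± 0.07 in WT and KO females and by 0.40 ± 0.07 and 0.46 ± 0.07 in WT and KO males (log2 scale; highest adjusted p = 0.00218).

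Ugt2b10 was the most clearly female-high of the cluster. The 60-day WT females stood at 104, 147, 173 and 122 CPM and the WT males at 31.4, 39.4, 30.9 and 42.5 CPM. No male reached the lowest female, and the difference was 3.79-fold (log2 -1.92 ± 0.17, adjusted p = 1.37e-09) in WT and 2.72-fold (-1.44 ± 0.17, adjusted p = 2.59e-07) in KO. The gene rose with age in WT females (0.77 ± 0.17, adjusted p = 0.000616) and fell in WT males (-0.85 ± 0.17, adjusted p = 0.000292), so that the sex difference changed by -1.63 ± 0.24 (adjusted p = 4.38e-05). Ugt2a3 also rose in WT females from 24 to 36.4 CPM at 30 days to 51.7 to 91.7 CPM at 60 days (1.32 ± 0.25, adjusted p = 0.000161). In WT males its change of -0.39 ± 0.25 was not called (adjusted p = 0.242). At 60 days WT males were lower by 1.11 ± 0.25 on the log2 scale (log2 fold change -1.11, adjusted p = 0.00123). Its sex difference changed with age by -1.71 ± 0.35 in WT and -1.62 ± 0.35 in KO (adjusted p = 0.00193 and 0.00657). Its neighbour Ugt2a1, at few reads, was called higher at 60 days in WT females (1.05 ± 0.41, adjusted p = 0.0488), and that call was lost in 7 of 8 fits that each left out a library.

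Ugt2b1, which in rats conjugates morphine among other substrates, fell with age in males. It stood at 209, 239, 290 and 182 CPM in 30-day WT males and at 17.8, 49.0, 85.8 and 36.8 CPM in 60-day WT males. The fall without overlap was 2.28 ± 0.39 on the log2 scale (adjusted p = 6.67e-05), and in KO males the gene fell by 2.89 ± 0.40 (adjusted p = 4.15e-06). In KO females it fell by 1.66 ± 0.38 (adjusted p = 0.00211). At 60 days it stood at 93.4, 141, 218 and 110 CPM in WT females and at 54.6, 63.8, 84.1 and 78.7 CPM in KO females. All 4 KO females were below all 4 WT females, yet the difference of -1.0 ± 0.38 missed the test (adjusted p = 0.115).

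Ugt2b itself, which RefSeq also lists as Ugt2b2, differed between animals of a group by orders of magnitude. In the 60-day WT females it stood at 0.158, 1033, 1537 and 1.77 CPM. In the 60-day KO females it stood at 0.300, 0.451, 0.369 and 0.401 CPM, and no 60-day male of either genotype was above 0.498 CPM. At 30 days WT males stood at 124, 183, 44.1 and 251 CPM, KO males at 55.2, 130, 49.8 and 137 CPM, WT females at 14.7, 5.29, 16.5 and 134 CPM and KO females at 11.6, 11.9, 48.8 and 0.377 CPM. Only replicates 2 and 3 of the WT females exceeded 2 CPM among the 16 livers at 60 days, whereas 15 of 16 did at 30 days.

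The test called Ugt2b lower in 60-day KO than in WT females (log2 -10.69 ± 2.05, adjusted p = 0.00251), although the lowest WT liver, replicate 1, was below all KO livers. limma-voom did not call it (adjusted p = 0.62). The age by genotype test in females called it as the only member (-9.47 ± 2.38, adjusted p = 0.0293; 1 of 36 beside 2.96% of all genes, 1.55% in that direction). That call was lost in 9 of 16 fits that each left out a library, with adjusted p up to 0.0688, and with limma-voom. The 9 libraries were 30-day WT female replicates 1, 2 and 3, 30-day KO female replicate 3, 60-day WT female replicates 2 and 3 and 60-day KO female replicates 1, 3 and 4. In males no member passed the age by genotype test (0 of 36 by edgeR, beside 0.00909% of all genes, with 2 at an unadjusted p below 0.05 and 0 by DESeq2 and limma-voom). The fall of Ugt2b with age in males had no overlap in either genotype (-8.76 ± 2.03 in WT and -8.41 ± 2.12 in KO, adjusted p = 0.00173 and 0.00389), and limma-voom called neither. Ugt2b was also called higher at 60 than at 30 days in WT females (3.92 ± 1.33, adjusted p = 0.0244) and lower in 60-day WT males than in WT females (-10.86 ± 2.08, adjusted p = 0.000281), with overlapping groups in both, and limma-voom called neither of these. The first was lost without 30-day replicate 1, 2 or 3 or 60-day replicate 2 or 3, with adjusted p up to 0.0813. In the 2 WT females with high Ugt2b, the cluster members Ugt2b1 (141 and 218 CPM) and Ugt2b10 (147 and 173 CPM) also had their highest levels of the 4. Other members of the family did not share that order: Ugt2b37 (210 and 166 CPM) and Ugt2b17 (324 and 302 CPM) had their lowest levels of the 4 in these livers. Whether reads were shared between these genes was not tested. Ugt2b7, at 1.54 CPM or less in every liver, was called lower at 60 than at 30 days in KO males (log2 -4.24 ± 1.38, adjusted p = 0.0215). It stood at 0, 1.18, 1.21 and 0.927 CPM and then at 0, 0, 0.140 and 0 CPM, with overlap. The 5 libraries with 10 or more reads of it were all from 30 days. The gene thus entered the test only through the age at which it was higher, and the call is no independent support for a fall.

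**Figure D4:**
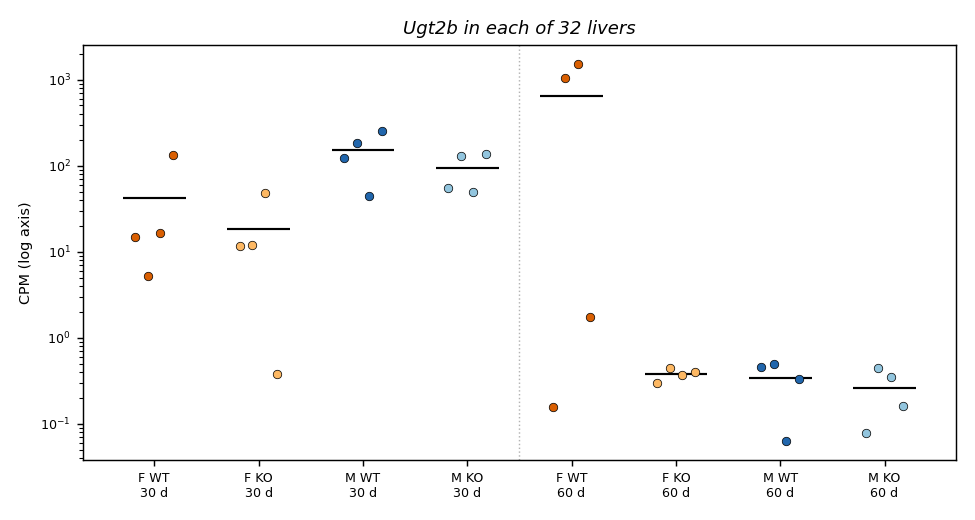
Ugt2b CPM in each of the 32 livers on a log axis, with group means as bars. At 60 days 2 WT females stand at 1033 and 1537 CPM and the other 14 livers at 1.77 CPM or less, whereas 15 of the 16 livers at 30 days lie at 5.29 CPM or more.

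The 60-day KO females covered a wider range than the WT females in several transferases. Gsta2, an alpha form known as inducible, stood at 19.7, 19.1, 14.6 and 22.5 CPM in WT and at 23.3, 21.8, 36.3 and 53.7 CPM in KO. Replicates 3 and 4 of KO were above all WT livers, replicate 1 was narrowly so, and replicate 2 lay within the WT range. The difference was 1.78-fold (log2 0.83 ± 0.23, adjusted p = 0.025). It was lost without WT replicate 2 or 3 or KO replicate 3 or 4, with adjusted p up to 0.139 and a log2 fold change of 0.52 to 1.00 over all such fits, and in a fit of the 60-day libraries alone.

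Gstm1 stood at 283, 357, 701 and 888 CPM in these KO females, against 379 to 463 CPM in WT, so that replicates 1 and 2 were below and replicates 3 and 4 above every WT liver. Ugt1a6 showed the same order, with 4.50, 6.19, 17.5 and 43.9 CPM in KO against 11.4 to 14.6 CPM in WT. Gsta3 stood at 35.6, 52.9, 114 and 188 CPM in KO against 63.1 to 85.2 CPM in WT. In these 3 genes the KO livers lay on both sides of the WT range. Their mean differences were not called: 0.37 ± 0.22 for Gstm1 (adjusted p = 0.346), 0.51 ± 0.43 for Ugt1a6 (adjusted p = 0.546) and 0.41 ± 0.45 for Gsta3 (adjusted p = 0.663). Mgst2, a form that makes leukotriene conjugates, stood at 46.0, 53.0, 68.5 and 109 CPM in KO and 47.2 to 62.6 CPM in WT.

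Of 27 members with at least 1 CPM in all 8 of these livers, KO replicate 4 had the highest level in 15 and KO replicate 1 the lowest in 14. The same counts were not made over all genes, so they are not shown to be particular to these families. Replicate 1 is also the library with photoreceptor markers, and without it 3 members were called, 2 higher and 1 lower. Ambiguous reads came to 0.448% and 0.466% in KO replicates 3 and 4, and to between 0.314% and 0.397% in the other 6 livers. The part of either in these differences was not tested.

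**Figure D5:**
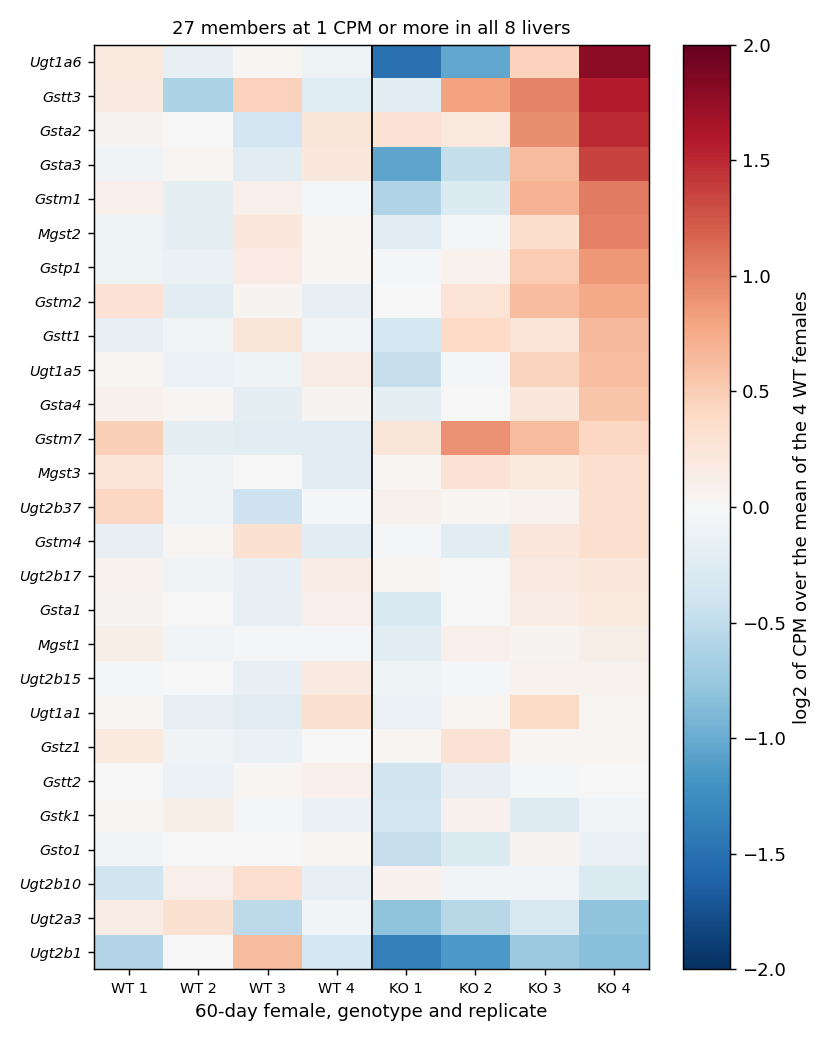
Heat map of log2 CPM over the mean of the 4 WT females for 27 members at 1 CPM or more in all 8 livers of 60-day females; columns are the WT and KO replicates and rows are ordered by KO replicate 4. Values run from -1.50 to 1.79, with KO replicate 4 the highest of the 8 in 15 members and KO replicate 1 the lowest in 14. These counts were not made over all genes.

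Genes around the 2 enzyme families were read from 6 lists. Of 17 tested genes of Nrf2, the factor that answers electrophile stress, and its targets, 4 were higher and 0 lower in 60-day KO females, with a median of 0.46 beside 0.01 over all genes. Called or not, 12 of the 17 were above 0. Nqo1 and Txnrd1 of the list were not called, and their KO livers lay on both sides of the WT range. Nqo1 stood at 28.8, 58.1, 72 and 157 CPM in KO against 69.5 to 108 CPM in WT. Txnrd1 stood at 85.2, 85.5, 111 and 152 CPM in KO against 107 to 128 CPM in WT. Ephx1, microsomal epoxide hydrolase, stood at 739, 248, 463 and 273 CPM in WT and at 666, 705, 1276 and 1517 CPM in KO, and rose by 1.27 ± 0.26 (adjusted p = 0.00321), with KO replicates 1 and 2 below WT replicate 1. Akr1b8, an aldo-keto reductase, stood at 0.551, 0, 2.21 and 0.922 CPM in WT and at 0.525, 0.387, 4.86 and 31.3 CPM in KO. Its call (3.30 ± 0.88, adjusted p = 0.0237) came with high values in replicates 3 and 4 alone. Gclc, the catalytic subunit of the ligase that starts glutathione synthesis, stood at 93.1, 90.5, 71.0 and 100 CPM in WT and at 112, 104, 138 and 169 CPM in KO, and rose by 0.56 ± 0.17 without overlap (adjusted p = 0.0446). Srxn1, sulfiredoxin, stood at 21.1, 17.1, 17.0 and 13.0 CPM in WT and at 17.0, 21.7, 27.2 and 44.4 CPM in KO. It rose by 0.70 ± 0.22 (adjusted p = 0.0481), with KO replicate 1 within the WT range. Whether the calls in the 6 lists hold in other settings or without a library was not tested. These calls were read beside the 6.77% of all genes called in that comparison.

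Of 26 tested genes of glutathione supply and recycling, 2 were higher (Gclc and Lancl1) and 2 lower (Oplah and Glrx) in 60-day KO females, with a median of -0.12. Glrx, glutaredoxin, fell by 1.16 ± 0.20 (adjusted p = 0.000731). Of 15 genes of UDP-glucuronate supply, transport and removal 1 was called, Galt of galactose metabolism, lower by 0.53 ± 0.12 (log2 -0.53, adjusted p = 0.00798). Of 10 exporters of conjugates, 0 were called by edgeR in 60-day KO females (2 at an unadjusted p below 0.05), and of 13 other glutathione-dependent or related enzymes 0 (1 such). Of 13 xenobiotic receptors and their targets, Aldh1a1 was higher and Nr1i3 (the receptor CAR) and Cyp1a2 were lower in 60-day KO females. Cyp1a2 stood at 761, 1111, 1081 and 1177 CPM in WT and at 340, 554, 575 and 466 CPM in KO, and fell by 1.09 ± 0.16 without overlap (adjusted p = 0.000135). In 30-day KO females Cyp1a1 was called lower (-2.21 ± 0.43, adjusted p = 0.0238). It stood at 2.44, 4.19, 6.30 and 0.997 CPM in WT and at 0.519, 0.719, 0.784 and 0.970 CPM in KO. The second number in the sample titles was 1 for WT replicates 1 to 3 and 2 for WT replicate 4 and all KO females. What that number means is not stated, and its part in the Cyp1a1 difference was not tested.

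Sex differences of the partner lists were read beside the 26.4% of all genes called in 60-day WT and the 18.5% called in KO. In 60-day WT 7 of 26 genes of glutathione supply were higher and 4 lower in males, and in KO 4 and 2. Of the Nrf2 list 8 were higher and 2 lower in WT males, with a median of 0.33, and 1 higher and 3 lower in KO males, with a median of 0.00. The edgeR test of sex by genotype at 60 days called 0 of these 17 genes, beside 0.136% of all genes, with 5 at an unadjusted p below 0.05. That test called 0 genes in the other lists as well, so the sex differences of the 2 genotypes were not shown to differ. Of the exporters 3 were lower and 0 higher in WT males, Abcc2, Abcc5 and Abcb1a, and in KO 2 were lower, Abcc3 and Abcb1a, of 10 tested. Of the 15 UDP-glucuronate genes 4 were higher and 3 lower in WT males, and 1 higher and 2 lower in KO males. The share of exporters in WT, and the shares of all the lists named in this paragraph in KO, were near those of all genes.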

How the data were processed

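Per the labels' protocols, liver RNA was taken up in Trizol and sequenced as stranded mRNA libraries. The submitters' processing notes name STAR, Cufflinks, limma and Rnor_5.0. No source used here gives their roles and versions, the annotation, or how shared reads and strand were counted. The authors deposited raw read counts for 17327 genes and a log2 table of 11344 genes. The deposited log2 values equalled log2 CPM recomputed from the counts to within 5e-09 over 11340 genes and were not used for tests. Reads assigned to no feature (18.0% to 21.2% of the total) and ambiguous reads (0.262% to 0.648%) stayed out of library sizes.

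The counts were fitted in R 4.3.3 with edgeR 4.0.16 (filterByExpr with a minimum count of 10, TMM scaling, robust quasi-likelihood fit of 8 group means over all 32 libraries, 24 residual degrees of freedom), and 18 contrasts were tested. The p-values were adjusted by Benjamini and Hochberg over 11002 genes, and SE is the absolute log2 fold change divided by the square root of F. The common biological coefficient of variation was 0.148. Total gene reads of 12951969 to 21954929 per library set the precision, and members with few reads have wide errors. No replicate pair of a group held identical counts. The fitting script was checked on simulated counts.

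Named were Serpina6; members called in a KO comparison or a genotype interaction; in sex comparisons up to 6 called members with the largest change in each direction; in age comparisons and sex by age tests up to 4; 14 members fixed by name; and up to 4 called genes per partner list. Other genes named were chosen after their values were seen. Members and lists were chosen with earlier results of these data known. Alternatives were upper-quartile scaling, no scaling (chosen after seeing the data), other filters, DESeq2 1.42.0, limma-voom (limma 3.58.1), libraries of 1 age only, the number in the 30-day titles as a covariate, and leaving out each library. Sequences came from RefSeq (GRCr8) promoter windows.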

Additional observations from a re-analysis of the deposited data

Results flagged for a closer look

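In 22 of 288 sets of 4 livers (36 members in 8 groups) the highest or lowest liver lay far from the other 3, where chance gives about 1 in 20. Among transferases at 30 days these were Gsto1 at 78.7 CPM in KO male replicate 4, Mgst2 at 59.4 CPM (the lowest) in KO male replicate 1, Gsta4 at 59.5 CPM (the lowest) and Gsta3 at 131 CPM in KO male replicate 3, Gstm7 at 109 CPM in WT male replicate 1 and Gsta1 at 530 CPM in WT male replicate 4. At 60 days they were Gstm7 at 79.2 CPM and Mgst1 at 2089 CPM in WT female replicate 1, Mgst1 at 1663 CPM (the lowest) in KO female replicate 1, and Gstz1 at 532 CPM in KO female replicate 2. In 60-day males they were Gsta1 at 822 CPM and Gstk1 at 115 CPM in WT replicate 3, Gsta3 at 29.2 CPM in KO replicate 2 and Gstm1 at 1282 CPM (the lowest) in KO replicate 3.

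Among glucuronosyltransferases the livers that stood apart were Ugt2b at 134 CPM in 30-day WT female replicate 4 and Ugt2b37 at 278 CPM in 60-day KO female replicate 4. Ugt2a1 stood apart at 0.647 CPM in 30-day KO female replicate 4 and at 0.799 CPM in 60-day KO female replicate 3. Ugt2b7 stood apart at 1.54 CPM in 30-day WT male replicate 3, and at 60 days at 0.134 CPM in KO female replicate 4, 0.127 CPM in WT male replicate 3 and 0.140 CPM in KO male replicate 3, which are levels of a few reads.

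The sex difference changed with age by an edgeR interaction test in WT for Gstm3 (3.01), Gstm1 (1.29), Gstm2 (0.97), Mgst3 (0.71), Ugt2b10 (-1.63), Ugt2a3 (-1.71), Ugt2b1 (-2.11) and Ugt2b (-12.68), as differences of log2 fold changes at 60 and 30 days. The 60-day WT females stood at 0.158, 1033, 1537 and 1.77 CPM for Ugt2b, so its value leans on replicates 2 and 3. In KO the sex difference changed with age for Gstm3 (2.19), Ugt2b37 (0.81), Gstm2 (0.76), Ugt2b10 (-0.93), Ugt2a3 (-1.62) and Gsta3 (-2.70). The genotype difference in females changed with age for Ugt2b (-9.47).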

How the results depend on the processing

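Of the 112 calls of members over all comparisons, 74 held in every setting tried and 80 in every fit that left out a library. None of the 1732 recomputed fold changes of named results changed sign, and 181 lost the call. Members called between 60-day KO and WT females numbered 2, against 1 with limma-voom, 1 in a fit of the 60-day libraries alone, and 1 to 4 with a library left out: 4 without WT replicate 1, and 1 without WT replicate 2 or 3 or KO replicate 3 or 4. For the sexes in 30-day WT the count was 2, against 1 with limma-voom, 4 in a fit of that age alone and 1 to 2 with a library left out (1 without female replicate 4 or male replicate 1 or 2). In 30-day KO it was 1, against 2 without scaling, 3 with DESeq2, 2 with limma-voom, 3 in a fit of that age alone, 2 with the title number as covariate and 1 to 2 with a library left out (2 without female replicate 2 or male replicate 1 or 3). The sex by genotype count at 60 days was 0, against 1 with DESeq2. The age by genotype count in females was 1, against 2 with DESeq2, 0 with limma-voom and 0 to 2 with a library left out (2 without 60-day KO replicate 2). The sex by age count in KO was 6, against 3 to 7 with a library left out; it was 3 without 30-day KO female replicate 3 or 4, 30-day KO male replicate 1, 60-day KO female replicate 2 or 60-day KO male replicate 1 or 4. Its split of 3 higher and 3 lower became 1 and 3 with upper-quartile scaling and 2 and 3 without scaling. The causes were not tested. Depth limits the members with few reads, above all Gstm3, Gstm6, Ugt1a2 and Ugt2b7. No paired analysis was possible because no label links animals across groups and the replicate numbers are accession order.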
